A study of Sus scrofa with 8 samples.

Results

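Mitochondrial ribosomal proteins were represented by 88 of the 23999 tested probesets in endometrium of pregnant pigs. None of those named by the array annotation passed the threshold for a difference between breeds, which only 0.908% of all probesets passed. Probesets were taken as members when the annotation of the array, or the study's own list of differing probesets, gave them a symbol beginning with MRPL or MRPS and a digit. The annotation gave exactly 1 such symbol to 78 probesets, which stood for 59 genes. Of these, 37 had an MRPL symbol and 22 an MRPS symbol, and genes were assigned to the large and small subunit by symbol alone. A further 5 probesets carried MRPL55 together with another symbol, C2H1orf35, and were kept apart because they could not be assigned to 1 gene. The last 5 were named only in the study's list, which had been drawn up because its probesets differed between the same 8 arrays, so their breed differences are given as a description with no test. Only part of that list was used here, so the count of 5, and with it that of 88, holds for the part used.

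The samples were whole endometrium of 4 Meishan and 4 Yorkshire gilts, each gilt on an array of its own, collected at day 12 of gestation. The gilts had been mated naturally to boars of their own breed, and only uteri in which all conceptuses had become filamentous were used, so breed of dam and breed of conceptus cannot be told apart. The Affymetrix Porcine array measures a transcript with a probeset, a group of short probes, and reports a linear signal that the authors scaled to a common level on every array. Signals below are in these units after centring each array on its median probeset, a breed mean is the geometric mean of 4 gilts, and differences are log2 values of Meishan minus Yorkshire. Differences were tested with limma, and an adjusted p under 0.1 counted as a call.

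The mitochondrial ribosome sits inside the organelle and translates the few messenger RNAs encoded by mitochondrial DNA, all of which specify core subunits of the respiratory chain and ATP synthase. Its RNAs are made from mitochondrial DNA, whereas every one of its proteins is encoded in the nucleus, made in the cytosol and imported. Some of these proteins descend from bacterial ribosomal proteins and others are found only in mitochondria. Secretory epithelia such as the uterine lining draw on respiration for the energy of synthesis and transport.

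Median array signals lay between 168 and 195, and arrays correlated with each other at 0.892 to 0.936 across probesets. Markers of luminal and glandular epithelium were bright in all gilts, with summed signals of 5 epithelial genes (keratins 8 and 18, E-cadherin, EPCAM and claudin 4) of 25107 to 42111 in Meishan and 27920 to 40023 in Yorkshire. Summed stromal markers (4 of 5 listed genes measured) were 56778 to 60769 in Meishan and 44901 to 53344 in Yorkshire, and did not overlap. The sum followed VIM (means of 25493 in Meishan and 18368 in Yorkshire) and the brighter DCN probeset (18755 in Meishan and 15540 in Yorkshire). Of the 6 stromal probesets, 5 had estimates on the Meishan side, but the breeds were separate for only 2. The dimmer COL1A2 probeset lay on the Yorkshire side, at -0.97, with means of 181 in Meishan and 356 in Yorkshire. Endothelial markers (4 of 4 genes) summed to 5385 to 5632 in Meishan and 5645 to 6919 in Yorkshire, also without overlap. That sum followed the brighter probesets of CDH5 (means of 1229 in Meishan and 1839 in Yorkshire) and VWF (939 in Meishan and 1355 in Yorkshire), whereas 5 of the 9 endothelial probesets, both of PECAM1 among them, had estimates on the Meishan side, with a median of 0.08. Markers of blood, leukocytes, muscle, glands and conceptus trophoblast overlapped between breeds in their sums. The trophoblast sum (3 of 6 listed genes measured) was widest, at 437 to 1620 in Meishan and 394 to 7424 in Yorkshire. Its width followed the IFNG probeset, at 14.2, 904, 304 and 114 in Meishan gilts and 4604, 221, 6286 and 33.5 in Yorkshire gilts. The part of these cell types in any breed difference of the mitochondrial ribosomal proteins was not tested. In whole tissue fewer cells of a type and less RNA per cell cannot be told apart.

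The question for the breed comparison was whether transcripts of the mitochondrial ribosome differed in abundance between Meishan and Yorkshire endometrium. None of the 78 annotated probesets was called by limma in either direction (0 of 78), where 0.908% of all probesets were called, 0.404% as higher in Meishan and 0.504% as higher in Yorkshire. Of these 78, 13 were also named in the part used of the study's list of differing probesets. The share of all probesets in that part was not counted, so 13 of 78 has no background beside it. That list rested on the study's own model and q-values, which gave more differing probesets than the 218 of 23999 called by limma. The 0 calls therefore hold for the limma fit. The lowest adjusted p among the members was 0.157 (MRPL32). At an unadjusted p under 0.05 there were 11 of 78, or 14.1%, beside 14.8% of all probesets, so the share was close to the background. Of these, 7 were higher in Meishan (7.79% of all probesets were) and 4 were higher in Yorkshire (6.96% of all probesets were). The signals of the 8 gilts separated completely by breed for 6 probesets (7.69%, beside 10.1% of all probesets), 2 of them higher in Meishan and 4 higher in Yorkshire, against 5.01% and 5.09% of all probesets.

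The differences were small in size. Estimated log2 differences ran between -0.77 (MRPL32) and 1.12 (MRPS36), 63 of 78 lay within 0.5 of zero, and 1 reached an absolute value of 1, which 13.4% of all probesets did. The 95% interval of the difference stayed within a 2-fold change in either direction for 60 of 78 probesets (76.9%, beside 43.9% of all probesets and 61% of those with a mean signal of at least 64). Of the 16718 probesets at or above that signal, 940 reached an absolute log2 difference of 1. The members were also brighter than most of the array, with a median mean signal of 452 beside 179 over all probesets, and 5 of 78 lay below 64. Their median spread among gilts of a breed was 0.29 (SD of log2 signal), beside 0.44 for all probesets and 0.35 for those with a mean of at least 64.

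The estimates were on the Meishan side for 49 probesets and on the Yorkshire side for 29, which is 62.8% beside 51.7% of all probesets, and their median was 0.08 beside 0.02. At a mean signal of at least 64, 46 of 73 members lay on the Meishan side, beside 46.4% of all probesets. The medians there were 0.07 for members and -0.04 for all. This leaning depended on single animals, since 40 lay on the Meishan side without Meishan gilt 1 and 56 without Meishan gilt 2, with medians of 0.02 and 0.18. When only the brightest probeset of each gene was kept, 35 of 59 genes lay on the Meishan side and the median was 0.04. The plot of differences by probeset shows the intervals of both subunits spread around zero.

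**Figure D1:**
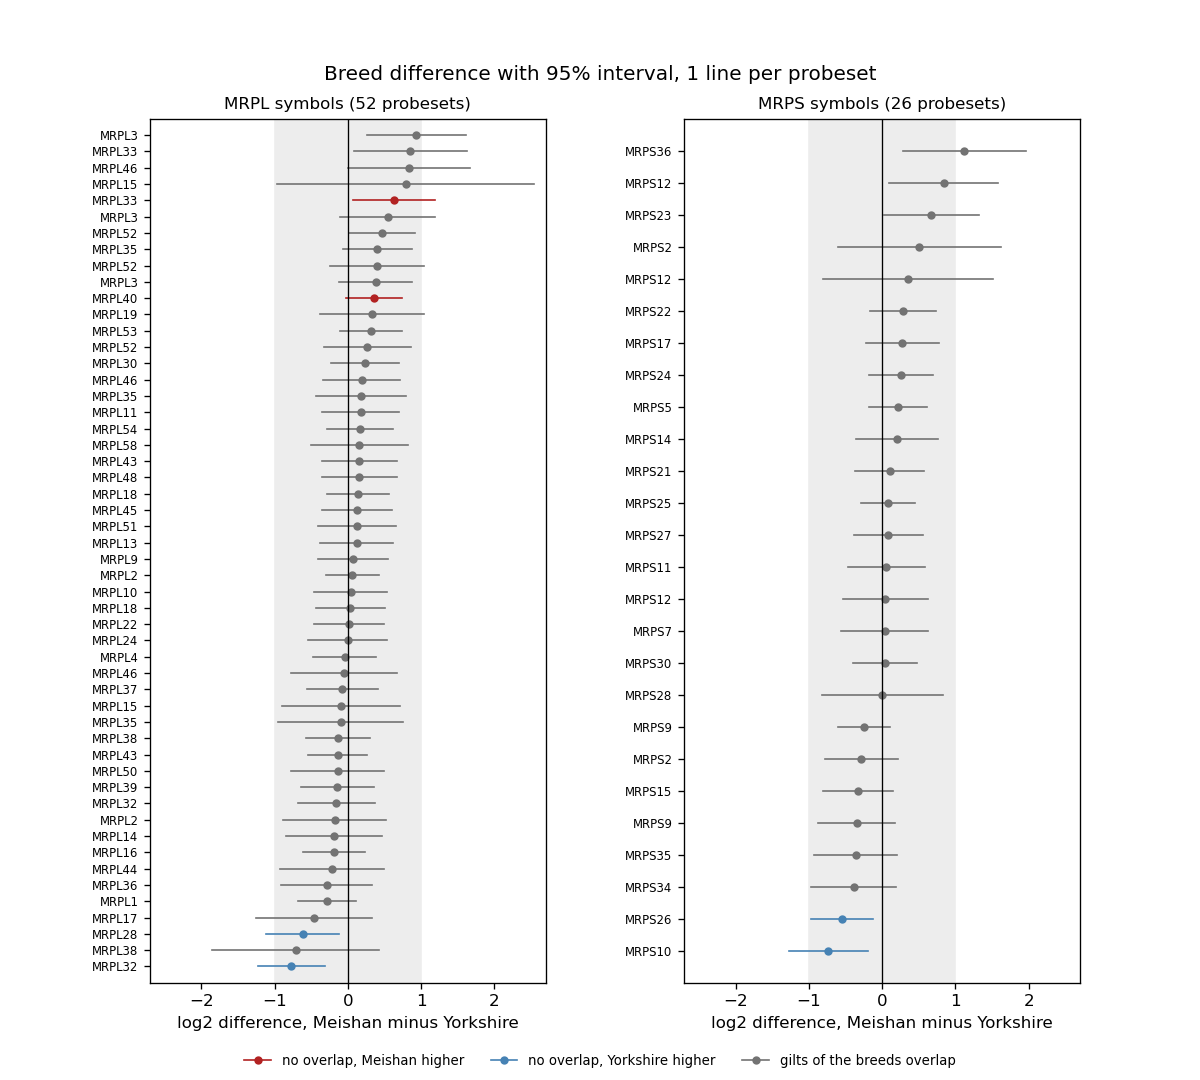
Log2 difference (Meishan minus Yorkshire, x axis) of each of the 78 annotated probesets with its 95% interval, for MRPL symbols (left, 52 probesets) and MRPS symbols (right, 26), ordered by size. The grey band marks a 2-fold change either way; red and blue mark the 2 and 4 probesets whose 4 Meishan and 4 Yorkshire gilts did not overlap, and 60 of 78 intervals lie inside the band.

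Median differences were small for both kinds of symbol. MRPS30, which lies in the large subunit, and MRPS36, which stands outside the ribosome, were counted with the MRPS genes by their symbols. The 52 probesets of MRPL genes lay on the Meishan side in 31 cases and on the Yorkshire side in 21, with a median of 0.10, and 6 reached an unadjusted p under 0.05. The 26 probesets of MRPS genes lay on the Meishan side in 18 cases and on the Yorkshire side in 8, with a median of 0.07, and 5 reached it. The difference between the medians, 0.03, turned to -0.06 without Meishan gilt 2. Genes on a list of proteins with a bacterial counterpart (47 probesets of 34 genes) had a median of 0.06. The genes not on that list (31 probesets of 25 genes, MRPS28 and MRPS36 among them) had a median of 0.13.

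Among the 4 probesets with all Yorkshire gilts above all Meishan gilts, MRPL32 had the lowest p of the members. MRPL32 is a large subunit protein whose precursor is cut by the m-AAA protease of the inner membrane, a step known from yeast and mouse to allow ribosome assembly. Its probeset Ssc.29111.1.S1_at gave 123, 171, 184 and 144 in Meishan gilts and 296, 289, 223 and 245 in Yorkshire gilts. Every Meishan gilt was below every Yorkshire gilt, and the closest pair was 184 in Meishan and 223 in Yorkshire. The log2 difference was -0.77 (SE 0.20, n = 4 per breed, adjusted p = 0.157 in limma). The second MRPL32 probeset, Ssc.23474.1.S1_at, had means of 242 in Meishan and 270 in Yorkshire with overlapping gilts and a difference of -0.16.

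MRPS10, a protein of the head of the small subunit with a bacterial counterpart, gave 1029, 988, 619 and 694 in Meishan gilts and 1263, 1338, 1671 and 1182 in Yorkshire gilts. The Meishan gilts fell into a brighter pair (1 and 2) and a dimmer pair (3 and 4), all below the Yorkshire gilts. The estimated log2 difference was -0.73 (SE 0.23, n = 4 per breed, adjusted p = 0.214 in limma).

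MRPS26, a small subunit protein found only in mitochondria, gave 718, 721, 605 and 766 in Meishan gilts and 1028, 865, 1238 and 991 in Yorkshire gilts. The breeds were separate, with Meishan gilt 4 and Yorkshire gilt 2 nearest each other. This gave a log2 difference of -0.55 (SE 0.18, n = 4 per breed, adjusted p = 0.227 in limma).

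MRPL28, a large subunit protein with a bacterial counterpart, gave 608, 375, 479 and 661 in Meishan gilts and 735, 839, 827 and 776 in Yorkshire gilts. The Yorkshire gilts lay close together and the Meishan gilts were lower and more scattered, Meishan gilt 2 lowest. This gave a log2 difference of -0.61 (SE 0.22, n = 4 per breed, adjusted p = 0.251 in limma).

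The separated probesets on the Meishan side were MRPL33 and MRPL40. MRPL33, a large subunit protein with a bacterial counterpart, gave 1979, 1116, 1176 and 1850 in Meishan gilts and 980, 865, 1086 and 907 in Yorkshire gilts at Ssc.17523.2.S1_a_at. Separation was narrow, since Meishan gilt 2 (1116) and Yorkshire gilt 3 (1086) were nearly level, while Meishan gilts 1 and 4 were well above all others. This was a log2 difference of 0.63 (SE 0.24, n = 4 per breed, adjusted p = 0.285 in limma). The other MRPL33 probeset, Ssc.17523.1.S1_at, gave 1337, 829, 565 and 983 in Meishan gilts and 309, 522, 671 and 539 in Yorkshire gilts. Here Meishan gilt 3 fell among the Yorkshire gilts, and the difference was 0.85 (SE 0.33, n = 4 per breed, adjusted p = 0.295 in limma).

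MRPL40, a large subunit protein found only in mitochondria, gave 798, 761, 650 and 722 in Meishan gilts and 554, 501, 610 and 632 in Yorkshire gilts. Meishan gilt 3 was only slightly above Yorkshire gilt 4, and the spread within each breed was small. This was a log2 difference of 0.35 (SE 0.17, n = 4 per breed, adjusted p = 0.375 in limma).

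**Figure D2:**
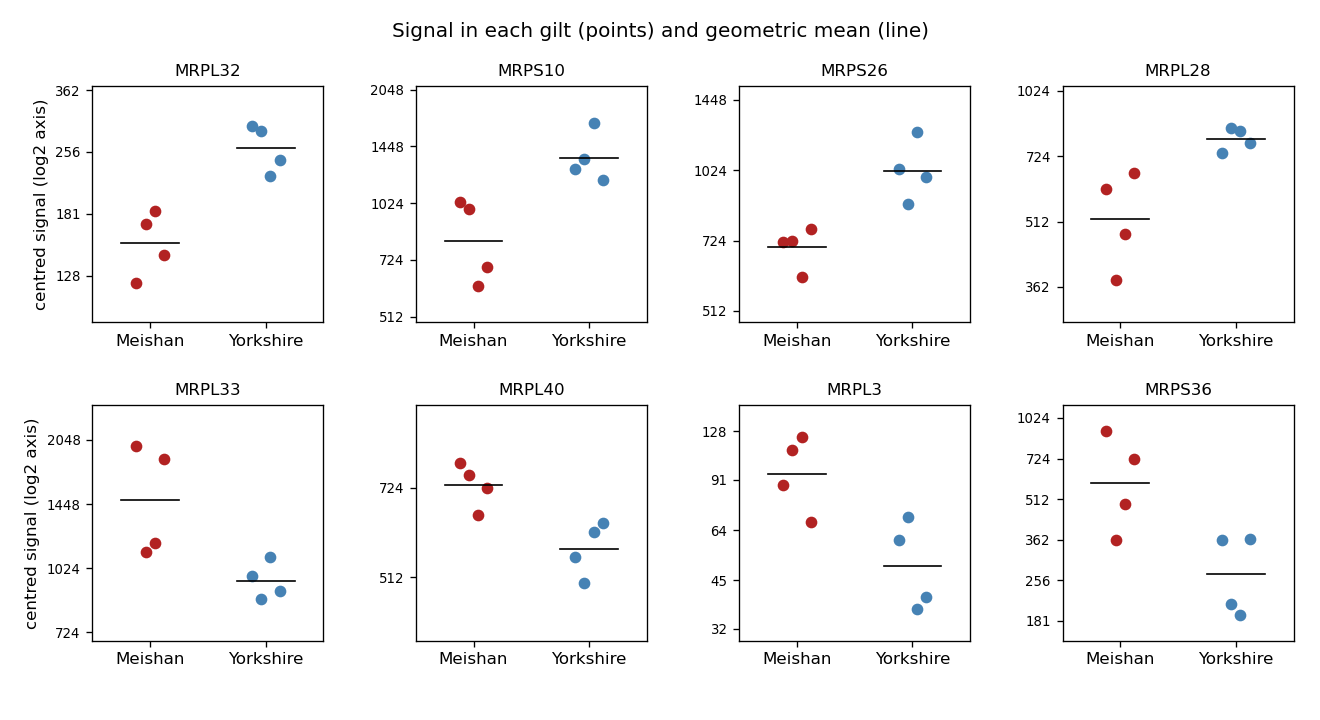
Centred signal (log2 y axis, scale set per panel) of each gilt (points) and the geometric mean of 4 gilts (line), Meishan left and Yorkshire right, for 1 probeset each of 8 genes. MRPL32, MRPS10, MRPS26 and MRPL28 separate with Yorkshire higher, MRPL33 and MRPL40 separate with Meishan higher, and MRPL3 (Ssc.7228.1.A1_at) and MRPS36 have 1 or more gilts of the breeds at the same level.

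MRPS36 had the largest estimated difference of the 78 probesets. The study named it among the ribosomal protein genes with higher expression in Meishan. Despite its symbol, the protein is now known in mammals as KGD4, a part of the 2-oxoglutarate dehydrogenase complex of the citric acid cycle, so it stands outside the ribosome proper. It gave 916, 362, 493 and 720 in Meishan gilts and 362, 209, 191 and 362 in Yorkshire gilts. The lowest Meishan gilt was level with the highest Yorkshire gilts, and the others were separate. The log2 difference was 1.12 (SE 0.36, n = 4 per breed, adjusted p = 0.219 in limma).

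MRPL3, a core protein of the large subunit near the site where peptide bonds form, was measured by 3 probesets, all with estimates on the Meishan side. Ssc.7228.1.A1_at, much the dimmest of them, gave 87.6, 112, 123 and 67.8 in Meishan gilts and 59.8, 70.1, 36.8 and 40.1 in Yorkshire gilts. Only Meishan gilt 4 and Yorkshire gilt 2 crossed, and the difference was 0.93 (SE 0.29, n = 4 per breed, adjusted p = 0.209 in limma). The brightest, Ssc.20954.1.S1_at, gave 2143, 1591, 2691 and 2008 in Meishan gilts and 1676, 1531, 1879 and 1332 in Yorkshire gilts, with overlap and a difference of 0.38. Ssc.20954.2.S1_a_at gave 1613, 1184, 2232 and 2231 in Meishan gilts and 1368, 1351, 834 and 1372 in Yorkshire gilts, with a difference of 0.54. None of the MRPL3 differences passed the threshold, and Yorkshire gilts 1, 2 and 4 lay close together at the last of these probesets.

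MRPS12, which sits at the decoding centre of the small subunit, MRPS23, a mitochondria-specific small subunit protein, and MRPL46, a mitochondria-specific large subunit protein, also had estimates on the Meishan side, with overlapping gilts, at the probeset with the lowest p of each gene. The dimmest MRPS12 probeset, Ssc.9341.2.S1_at, gave 105, 83.0, 83.2 and 142 in Meishan gilts and 35.0, 62.7, 51.3 and 89.1 in Yorkshire gilts, a difference of 0.84 (SE 0.32, n = 4 per breed, adjusted p = 0.285 in limma). The brighter MRPS12 probesets had differences of 0.36 and 0.04, and their gilts overlapped. MRPS23 gave 146, 194, 184 and 194 in Meishan gilts and 147, 88.0, 75.9 and 160 in Yorkshire gilts, overlapping through Meishan gilt 1, with a difference of 0.67 (SE 0.28, n = 4 per breed, adjusted p = 0.328 in limma). MRPL46 at Ssc.28339.1.A1_at gave 150, 169, 190 and 73.3 in Meishan gilts and 54.6, 119, 76.2 and 70.9 in Yorkshire gilts. Meishan gilt 4 stood with the Yorkshire gilts, and the difference was 0.83 (SE 0.36, n = 4 per breed, adjusted p = 0.340 in limma). The brighter MRPL46 probesets had differences of 0.19 and -0.05, and their gilts overlapped.

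Of the other named probesets, MRPL52 (Ssc.3811.2.S1_at) lay between 52.9 and 64.9 in Meishan and between 35.0 and 52.9 in Yorkshire, with a difference of 0.47 (SE 0.20, n = 4 per breed, adjusted p = 0.328 in limma). MRPL35 (Ssc.7450.1.A1_at) lay between 887 and 1339 in Meishan and between 699 and 946 in Yorkshire. The brightest members of the set were MRPL3, MRPL53 and MRPS17. MRPL53 lay between 1765 and 2166 in Meishan and between 1269 and 1783 in Yorkshire, with a difference of 0.32. MRPS17 lay between 1403 and 2562 in Meishan and between 1424 and 1676 in Yorkshire, with a difference of 0.28. In both genes the breeds overlapped.

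Several proteins with well-known positions or functions had no call and overlapping gilts. MRPL58, a peptidyl-tRNA hydrolase built into the large subunit that releases stalled chains, averaged 481 in Meishan and 431 in Yorkshire (difference 0.16, SE 0.29). MRPL45, which attaches the ribosome to the inner membrane, averaged 544 in Meishan and 498 in Yorkshire (0.13, SE 0.21). MRPL1, of the stalk beside the exit site for transfer RNA, averaged 622 in Meishan and 759 in Yorkshire (-0.29, SE 0.17). MRPS30, which lies in the large subunit despite its symbol, averaged 208 in Meishan and 203 in Yorkshire (0.03, SE 0.19).

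Probesets of the same gene did not always lie on the same side. The annotation gave 45 genes a single probeset, 9 genes a pair and 5 genes 3 each. Over both sources of names, 16 genes had more than 1 probeset, 8 of these had estimates on both sides of zero, and in 5 (MRPL15, MRPL18, MRPL46, MRPL50 and MRPS2) the gap between opposite probesets was over 0.5. MRPL15 was at 0.79 at a probeset with a mean signal of 22.9 and at -0.09 at one averaging 789 in Meishan and 842 in Yorkshire. MRPS2 was at 0.51 at its dim probeset (75.3 in Meishan, 52.9 in Yorkshire) and at -0.28 at its brighter one (294 in Meishan, 357 in Yorkshire). MRPL38 had both its estimates on the Yorkshire side, at -0.71 where its means were 23.8 in Meishan and 39.0 in Yorkshire, and at -0.13 where they were 456 in Meishan and 499 in Yorkshire.

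**Figure D3:**
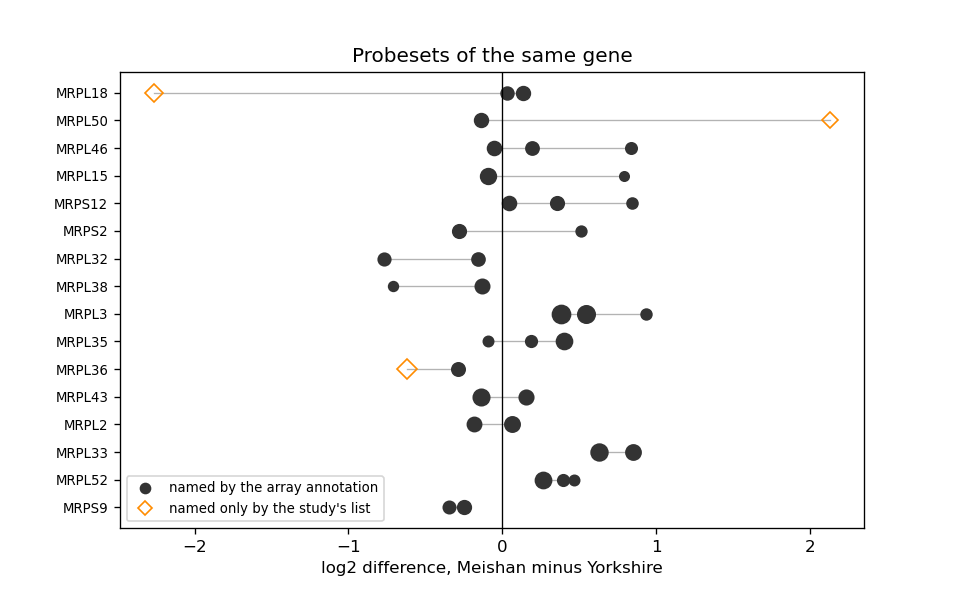
Log2 differences (Meishan minus Yorkshire, x axis) of the 16 genes with more than 1 probeset, 1 mark per probeset and larger marks for brighter probesets; open diamonds were named only by the study's list of differing probesets. MRPL33, MRPL52 and MRPS9 agree within 0.22, whereas MRPL50 and MRPL18 hold probesets at 2.13 and -2.26 beside others near zero.

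The widest differences of all members were among the 5 probesets named only by the study's list, which had been chosen for differing. MRPL50, a mitochondria-specific large subunit protein, gave 127, 230, 269 and 176 in Meishan gilts and 33.6, 65.6, 31.5 and 53.8 in Yorkshire gilts at Ssc.22469.1.A1_at, a difference of 2.13. The annotated MRPL50 probeset, Ssc.22468.1.S1_at, gave 391, 396, 236 and 379 in Meishan gilts and 416, 309, 291 and 546 in Yorkshire gilts, a difference of -0.14. The breeds were far apart at the dimmer MRPL50 probeset and overlapped at the brighter one.

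MRPS16, a small subunit protein with a bacterial counterpart, gave 40.4, 64.2, 53.9 and 56.9 in Meishan gilts and 5.42, 9.22, 30.4 and 8.60 in Yorkshire gilts, a difference of 2.31 among dim signals. It shrank to 0.73 when signals under 32 were set to 32. MRPL18, a large subunit protein that binds 5S ribosomal RNA in bacteria, gave 59.9, 269, 99.2 and 92.0 in Meishan gilts and 757, 900, 783 and 147 in Yorkshire gilts at Ssc.8555.1.A1_at. Yorkshire gilt 4 fell among the Meishan gilts, the difference was -2.26, and the annotated MRPL18 probesets were at 0.03 and 0.14. MRPL36 had 531, 496, 402 and 417 in Meishan gilts and 657, 784, 739 and 642 in Yorkshire gilts at Ssc.8382.1.S1_at, a difference of -0.62 beside -0.29 at its annotated probeset. MRPL34 had 1073, 610, 674 and 870 in Meishan gilts and 529, 484, 581 and 735 in Yorkshire gilts, with overlap and a difference of 0.45.

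The 5 probesets shared by MRPL55 and C2H1orf35 all had estimates on the Yorkshire side, between -0.61 and -0.01 with a median of -0.19. The largest, Ssc.28461.1.A1_s_at, gave 324, 171, 274 and 290 in Meishan gilts and 335, 428, 360 and 456 in Yorkshire gilts. The breeds were separate there, though Meishan gilt 1 and Yorkshire gilt 1 were nearly level (difference -0.61, SE 0.24, n = 4 per breed, adjusted p = 0.304 in limma). The _s_at suffix marks probes that match more than 1 transcript, so the value cannot be given to 1 gene.

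Variation among gilts was more apparent than the breed difference. The mean log2 signal of the 78 probesets was 8.95, 8.47, 8.59 and 8.80 in Meishan gilts and 8.59, 8.54, 8.66 and 8.69 in Yorkshire gilts. Meishan gilts 1 and 4 were the highest of the 8 and Meishan gilts 2 and 3 were among the lower ones, so the Yorkshire gilts lay inside the range of the Meishan gilts. Breed means were 8.70 ± 0.22 in Meishan and 8.62 ± 0.07 in Yorkshire (SD, n = 4 each), a difference of 0.08 that was smaller than the spread of the Meishan gilts. This difference became 0.00 without Meishan gilt 1 and 0.16 without Meishan gilt 2. With all gilts it was 0.13 after quantile or cyclic loess normalization and 0.15 with no further scaling. The MRPL probesets (8.98, 8.53, 8.64 and 8.82 in Meishan; 8.62, 8.60, 8.71 and 8.69 in Yorkshire) and the MRPS probesets (8.90, 8.35, 8.47 and 8.76 in Meishan; 8.54, 8.42, 8.56 and 8.67 in Yorkshire) both put Meishan gilt 1 highest and Meishan gilt 2 lowest.

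Of the 78 probesets, 34 (43.6%) were highest in Meishan gilt 1, where 18% of all probesets were highest, and 14 (17.9%) were highest in Meishan gilt 4. In turn 24 (30.8%) were lowest in Meishan gilt 2, where 14% of all probesets were lowest, while 1 (1.28%) was lowest in Meishan gilt 1. The median spread within Meishan was 0.32 and within Yorkshire 0.22, beside 0.33 in Meishan and 0.31 in Yorkshire over all probesets with a mean of at least 64.

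The control probeset for the 5′ end of GAPDH, a glycolytic enzyme whose probesets at both ends of the transcript serve as a check on RNA and labelling, had signals of 6345, 1746, 4362 and 5365 in Meishan gilts and 2926, 1885, 2175 and 4186 in Yorkshire gilts. It too was highest in Meishan gilt 1 and lowest in Meishan gilt 2. The 3′ GAPDH probeset did not share this order, at 21622, 12465, 19909 and 22285 in Meishan gilts and 11836, 9385, 12352 and 14147 in Yorkshire gilts, highest in Meishan gilt 4 and lowest in Yorkshire gilt 2. The ratio of the 3′ to the 5′ GAPDH signal was 3.41, 7.14, 4.56 and 4.15 in Meishan gilts and 4.04, 4.98, 5.68 and 3.38 in Yorkshire gilts, and that of actin was 1.56, 3.32, 2.91 and 2.63 in Meishan gilts and 2.01, 2.48, 4.45 and 2.26 in Yorkshire gilts. The part of these differences in the gilt means of the members was not tested.

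**Figure D4:**
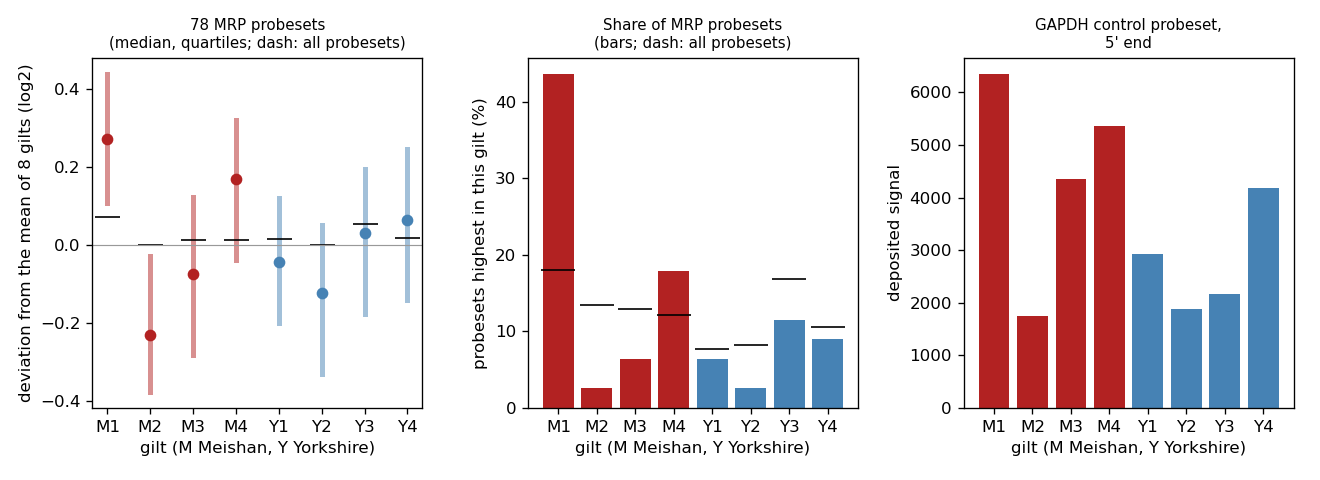
For each gilt (Meishan 1 to 4 left, Yorkshire 1 to 4 right): the median and quartiles over the 78 annotated probesets of the log2 deviation from the mean of 8 gilts (left), the percentage of the 78 probesets highest in that gilt (middle), each with a dash for all probesets, and the deposited signal of the GAPDH 5′ control probeset (right). Meishan gilt 1 is highest in all 3 panels (34 of 78 probesets, GAPDH signal 6345) and Meishan gilt 2 has the lowest median deviation, -0.23, and the lowest GAPDH signal, 1746.

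The breed difference of the whole array varied with brightness, so members were also set beside probesets of like signal. In the dimmest decile of all probesets the median difference was 0.46, and it was between -0.11 and 0.00 from the sixth decile upward, at mean signals above 179. After quantile normalization the decile medians lay between -0.02 and 0.10, with 0.10 in the dimmest, so most of this dependence was absent under that scaling. The members in those 5 brighter deciles numbered 9, 18, 16, 20 and 3 and had medians of 0.03, 0.00, 0.09, 0.06 and 0.32. The 4 members with signals between 62.1 and 109 had a median of 0.84, beside 0.12 for all probesets of that decile. Spike-in controls for hybridization (27 probesets) averaged 12.1 in Meishan and 11.1 in Yorkshire on the log2 scale without overlap, and their part in the members' differences was not tested.

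**Figure D5:**
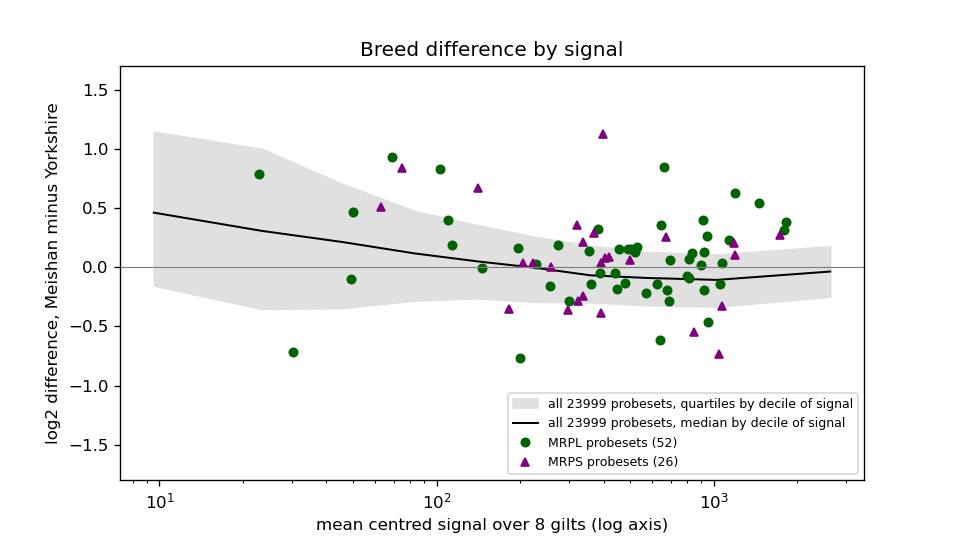
Log2 difference (Meishan minus Yorkshire, y axis) against mean centred signal over 8 gilts (log x axis) for the 52 MRPL and 26 MRPS annotated probesets, with the median (line) and quartiles (grey) of all 23999 probesets by decile of signal. Most members lie at signals above 179, where the medians of all probesets run between -0.11 and 0.00.

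Other genes of mitochondrial translation were taken from lists of ribosomal subunits under other symbols, assembly factors and translation factors. Further lists covered aminoacyl-tRNA synthetases with related enzymes, and factors of mitochondrial DNA transcription and RNA stability. Together the lists gave 62 probesets of 42 genes, of which 0 were called by limma, beside 0.908% of all probesets. An unadjusted p under 0.05 was reached by 5 (8.06%, beside 14.8% of all probesets), 3 higher in Meishan and 2 higher in Yorkshire. The estimates lay on the Meishan side in 28 cases and on the Yorkshire side in 34, with a median of -0.04, and the breeds did not overlap for 4 probesets (6.45%, beside 10.1% of all probesets). A list of the 13 proteins encoded by mitochondrial DNA, the products of the mitochondrial ribosome, had no probeset that the annotation named.

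Assembly factors and rRNA modifying enzymes (22 probesets of 13 genes) had a median of -0.13, with 3 probesets separated by breed (13.6%, beside 10.1% of all probesets), all higher in Yorkshire (5.09% of all probesets were). TFB1M, which methylates the RNA of the small subunit, gave 185, 161, 125 and 133 in Meishan gilts and 239, 252, 281 and 211 in Yorkshire gilts. The Yorkshire gilts were all above the Meishan gilts (difference -0.71, SE 0.20, n = 4 per breed, adjusted p = 0.173 in limma). RBFA, a maturation factor of the small subunit, averaged 214 in Meishan and 285 in Yorkshire (-0.41, adjusted p = 0.343 in limma), also without overlap. GTPBP10, a GTPase of large subunit assembly, averaged 155 in Meishan and 231 in Yorkshire at the probeset with the lowest p (-0.58) and overlapped.

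Translation factors (10 probesets of 9 genes) had a median of 0.00, and MTRF1, of the release factor family, averaged 152 in Meishan and 89.5 in Yorkshire (0.77, adjusted p = 0.230 in limma). The elongation factor TUFM averaged 577 in Meishan and 666 in Yorkshire (-0.21). The list of aminoacyl-tRNA synthetases and related enzymes (14 probesets of 11 genes) had a median of 0.09. It held GATB, GATC and QRSL1, which are not synthetases, and GARS and KARS, which also encode the cytosolic enzymes. The subunits under other symbols (6 probesets of 4 genes) had a median of -0.13, with 0 separated by breed in either list. The list of mitochondrial DNA transcription and RNA stability (10 probesets of 5 genes: TFAM, SSBP1, PNPT1, SLIRP and ELAC2) had a median of -0.08. TFAM, which packages mitochondrial DNA and starts its transcription, gave 178, 137, 132 and 159 in Meishan gilts and 113, 101, 73.5 and 103 in Yorkshire gilts at Ssc.15920.1.S1_at. All Meishan gilts were above the Yorkshire gilts there (0.64, adjusted p = 0.214 in limma). The brightest TFAM probeset, Ssc.25112.1.S1_at, averaged 1258 in Meishan and 1399 in Yorkshire, with a difference of -0.15.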

How the data were processed

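The authors converted scanner images of 8 one-colour arrays with GCOS 1.2 (per the labels), and the deposited intensity values are linear signals whose mean after trimming 2% at each end was 500.1 on every array. Of 24123 probesets, 124 controls were left out. Signals were log2-transformed, arrays were centred on their medians, and breeds were compared with limma 3.58.1 (R 4.3.3; empirical Bayes, prior degrees of freedom 2.09) with Benjamini-Hochberg adjustment over 23999 probesets. The threshold of 0.1 is that of the study's q-values. Recovery was tested on simulated data with independent noise in each probeset. Apart from a run with none, planted changes were at least 2-fold, so recovery of smaller differences, such as those of most members, was not tested.

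In the array annotation 10110 probesets had 1 symbol, 157 had several and 13732 had none. The files name no genome build, so no coordinates are given. The members, gene lists and rule for named genes were chosen with earlier results of these data known. Named were called members, the 16 annotated probesets with the lowest p, those of the study's list, the 3 brightest and 3 dimmest, opposite probesets of a gene, MRPS36, and up to 3 per list of mitochondrial translation genes. MRPL58, MRPL45, MRPL1, MRPS30, TUFM, the MRPL55 probesets and the second probesets of MRPL32, MRPL38 and TFAM were added after their values were seen. Columns of p-values in the study's tables were not used. Detection calls were not used here, the number of arrays limits precision, and the gilts were separate animals. Alternatives covered scaling, filters on dim signals, the prior, q-values, the replicate number as a block and leaving out each gilt.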

Additional observations from a re-analysis of the deposited data

Results flagged for a closer look

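Gilts that stood apart from the other gilts of their breed were sought by Dixon's test at the 95% level in 70 groups of 4, and chance alone flags about 1 group in 20. There were 4 such values. MRPL3 at Ssc.20954.2.S1_a_at was 834 in Yorkshire gilt 3, with the other Yorkshire gilts between 1351 and 1372. MRPL53 was 1269 in Yorkshire gilt 4, with the others between 1708 and 1783. MRPL18 at Ssc.8555.1.A1_at was 147 in Yorkshire gilt 4, with the others between 757 and 900, and its difference became -2.88 without that gilt. MRPL50 at its annotated probeset was 236 in Meishan gilt 3, with the others between 379 and 396.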

How the results depend on the processing

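The count of annotated members called stayed at 0 with no further scaling, quantile or cyclic loess normalization, an intensity trend, an unmoderated model, Storey q-values, a threshold of 0.05 and each gilt left out. It was 1 of 73 when probesets with a mean under 64 were left out (MRPL32, adjusted p = 0.0853 in limma). It was 2 of 78 when signals under 32 were set to 32 (MRPL32 and MRPS26, adjusted p = 0.0757 and 0.0990 in limma). It was 1 of 78 in an unmoderated model on unscaled signals with Storey q-values (MRPL40, q = 0.0829). The other mitochondrial translation genes had 0 calls, and 1 (TFB1M) in each of those 3 settings. Calls over all probesets, 218 of 23999, became 668 of 16718, 863 of 23999 and 499 of 23999 there. They were 626 with the trend, 532 with Storey q-values, 60 at 0.05, and 72 to 205 with a gilt left out. The large minus small subunit difference, 0.03, lay between -0.056 and 0.073 with a gilt left out, the lower value without Meishan gilt 2. The median over members, 0.08, was 0.14 with no further scaling, 0.16 after quantile and 0.17 after cyclic loess normalization, with 52, 53 and 53 of 78 on the Meishan side. The medians over all probesets in these settings were 0.08, 0.01 and 0.00. Replicate numbers did not pair the gilts: deviations of same-numbered gilts correlated at -0.0561, 0.0890, 0.00105 and 0.0407. In a fit with the replicate number as block, 0 members and 0 of all probesets were called by limma (3327 of all had an unadjusted p under 0.05), and members at an unadjusted p under 0.05 numbered 6 in place of 11; this count was 7 to 11 with a gilt left out. Of 640 alternatives run for the 34 named probesets, 18 gave the opposite sign, none of them called. The cause of these shifts was not tested. The 8 arrays, with a median SE of 0.23 for a member, limit the differences that could be detected, and dim signals such as those of MRPS16 and MRPL15 limit their estimates.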

Other observations

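Cytosolic ribosomal proteins, which build the ribosome of the cytoplasm, are given here only as values beside their mitochondrial counterparts, with no test of the difference. Their 93 probesets of 61 genes lay on the Meishan side in 71 cases and on the Yorkshire side in 22, with a median of 0.26, and 0 were called by limma at an adjusted p under 0.1 while 22 reached an unadjusted p under 0.05 (23.7%, beside 14.8% of all probesets). The breeds did not overlap for 35 of the 93 (37.6%, beside 10.1% of all probesets), 33 of them higher in Meishan and 2 higher in Yorkshire. The median was 0.02, with 50 of 93 on the Meishan side, after quantile normalization and 0.14 after cyclic loess normalization. The median deviation of the cytosolic probesets from the mean of 8 gilts was 0.13, 0.08, 0.18 and 0.12 in Meishan gilts and -0.10, -0.26, 0.02 and -0.15 in Yorkshire gilts. For the mitochondrial probesets it was 0.27, -0.23, -0.07 and 0.17 in Meishan gilts and -0.04, -0.12, 0.03 and 0.06 in Yorkshire gilts. With arrays centred on their medians, the Meishan gilts thus lay together in the cytosolic set and apart in the mitochondrial set. The cytosolic probesets were much brighter (median mean signal 14468 beside 452) and had a smaller median spread within a breed (0.17 beside 0.29). The part of brightness and scaling in this contrast was not tested.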
